A study of Mus musculus with 42 samples.

Results

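Olfr506 and Olfr1065 are mouse odorant receptors (ORs) whose rows were followed through all 9 tables of counts, which list 1088 intact ORs (1087 in the table of dorsal and ventral mucosa). These 2 ORs of 1088 were selected on measured values, as receptors whose counts rise steeply between 1% and 100% trimethylthiazoline (TMT). Their levels at 1% and 100% TMT are therefore given as a description, with no test. C57BL/6 mice (C57BL/6J in the study's methods) 20 to 22 days old were exposed for 1 h to TMT or to acetophenone (ACT) at starting concentrations of 0.01%, 0.1%, 1% or 100% (v/v), or to no odor. Each group holds 3 mice, 1 from each of 3 litters, and animals of both sexes were used. One set of 3 no odor mice serves both 0.01% and 0.1% of an odorant and another set serves both 1% and 100%, so comparisons with a common set are not independent. RNA bound to phosphorylated ribosomal protein S6 was sequenced from the olfactory epithelium (pS6-IP-Seq), and dorsal and ventral olfactory mucosa were profiled by RNA-Seq in 3 libraries each. The dorsal and ventral libraries came from the epithelia of 3 mice, and the labels do not tie a library to a mouse. The 0.01% ACT library of litter 1 stood apart from the other 2 litters at 0.01% ACT, and results that rest on it are given with and without it.

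ORs are seven-transmembrane receptors in the cilia of olfactory sensory neurons (OSNs), and each mature OSN expresses a single OR gene from a single allele. Ribosomal protein S6 becomes phosphorylated in active neurons, so mRNA of the OR expressed by activated OSNs is enriched in the precipitate. OR genes also have fixed territories, and an OR is typically expressed in OSNs of a dorsal zone or of more ventral zones of the epithelium. Both receptors belong to the class II (tetrapod) ORs, under the alternative names MOR204-23 (Olfr506) and MOR190-1 (Olfr1065). TMT is a component of fox odor that elicits fear behavior in rodents, and ACT is an aromatic ketone with a floral smell.

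On GRCm38, Olfr506 (ENSMUSG00000058244.4) lies on the plus strand of chromosome 7 at chr7:108610787-108615340, and its single coding exon runs without an intron through chr7:108612309-108613250. Olfr1065 (ENSMUSG00000111306.2) lies on the minus strand of chromosome 2 at chr2:86443958-86450591, with its coding stretch at chr2:86445042-86445980. The encoded proteins have 314 (Olfr506) and 313 (Olfr1065) residues and are 50.2% identical. By identity among 1081 other ORs, Olfr1065 ranks 75 for Olfr506 and Olfr506 ranks 104 for Olfr1065, so they are not close paralogues. Of all 50-base stretches in the GENCODE transcripts of Olfr506, 8.24% also occur in transcripts of another OR gene, and for Olfr1065 the share is 14.5%. Reads from those stretches cannot be assigned by sequence alone, so a small part of either count is uncertain.

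The 250 bases before the annotated transcription start of Olfr506 are shown to give the sequence beside the start of a gene described throughout. Capitals mark a match to CCCNNGGG, the core of the site bound by the O/E (Ebf) factors of OSNs. TAATTA, the core of homeodomain sites, was also searched. Both motifs read the same on either strand and do not overlap each other.
Olfr506, chr7:108610537-108610786, plus strand: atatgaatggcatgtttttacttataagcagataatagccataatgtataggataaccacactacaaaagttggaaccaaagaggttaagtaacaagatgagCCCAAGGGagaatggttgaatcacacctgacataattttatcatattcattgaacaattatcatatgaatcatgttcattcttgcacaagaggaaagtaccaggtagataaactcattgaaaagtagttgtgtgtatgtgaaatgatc
CCCNNGGG stands once in the window of Olfr506, with its first base at -148 from the start, and TAATTA does not occur there. Of the same windows of 1082 ORs with a unique place in GENCODE, 13.7% hold CCCNNGGG and 22.8% hold TAATTA.

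Both receptors stayed near their no odor level at the 3 lower TMT concentrations and were several fold higher at 100% TMT. Values are normalized counts, in which each library's counts on ORs are brought to 1 common effective size. At 100% TMT, Olfr506 had 290.0, 403 and 503 normalized counts in litters 1, 2 and 3 (198, 274 and 388 counts), against 55.0, 44.3 and 38.0 in the no odor littermates. All 3 libraries at 100% TMT, which the selection used, lay above all 3 no odor libraries. Of all ORs, 21.4% were higher at 100% TMT in 3 of 3 litters, a wider criterion that every OR without overlap meets. At 1% TMT, Olfr506 had 68.3, 51.8 and 45.3 normalized counts in the same litters, which overlap the no odor values. The log2 change from the no odor littermate was 0.26 ± 0.05 at 1% TMT and 3.08 ± 0.66 at 100% TMT (SD, n = 3 litters each), and the change at 1% TMT was 0.0088 with totals on ORs as the scaling. Between these concentrations, Olfr506 was higher at 100% by 2.82 ± 0.69 on the log2 scale (SD, n = 3 litters).

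Olfr1065 had 275, 440.3 and 466 normalized counts at 100% TMT (188, 299 and 360 counts), against 50.7, 48.9 and 65.6 in the no odor littermates. As for Olfr506, the 100% TMT and no odor libraries did not overlap. At 1% TMT it had 53.2, 47.7 and 42.5 normalized counts, within or below the no odor range. Its log2 change from the no odor littermate was -0.19 ± 0.37 at 1% TMT and 2.79 ± 0.36 at 100% TMT (SD, n = 3 litters each). The step between 1% and 100% TMT was 2.99 ± 0.56 on the log2 scale (SD, n = 3 litters). Among 1088 ORs ordered by this step, the quantity the selection used, Olfr1065 ranked 2 and Olfr506 ranked 4.

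The selection had no fixed threshold, and the ORs next in rank show what lies around the pair. Olfr1287 ranked 1, just above Olfr1065, Olfr1449 ranked 3 with 2.86 and Olfr1451 ranked 5 with 2.53. At 1% TMT, Olfr1287 and Olfr1449 lay below their no odor littermates, at log2 changes of -0.69 and -0.52, which adds to their steps. To a lesser extent the same holds for Olfr1065, with a mean of -0.19. Ordered by the change at 100% TMT from the no odor littermate instead, Olfr506 ranked 3 and Olfr1065 ranked 8 of 1088 ORs. Olfr1287 averaged 1.76 normalized counts over the 36 pS6-IP-Seq libraries, so its step rests on very few counts.

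**Figure D1:**
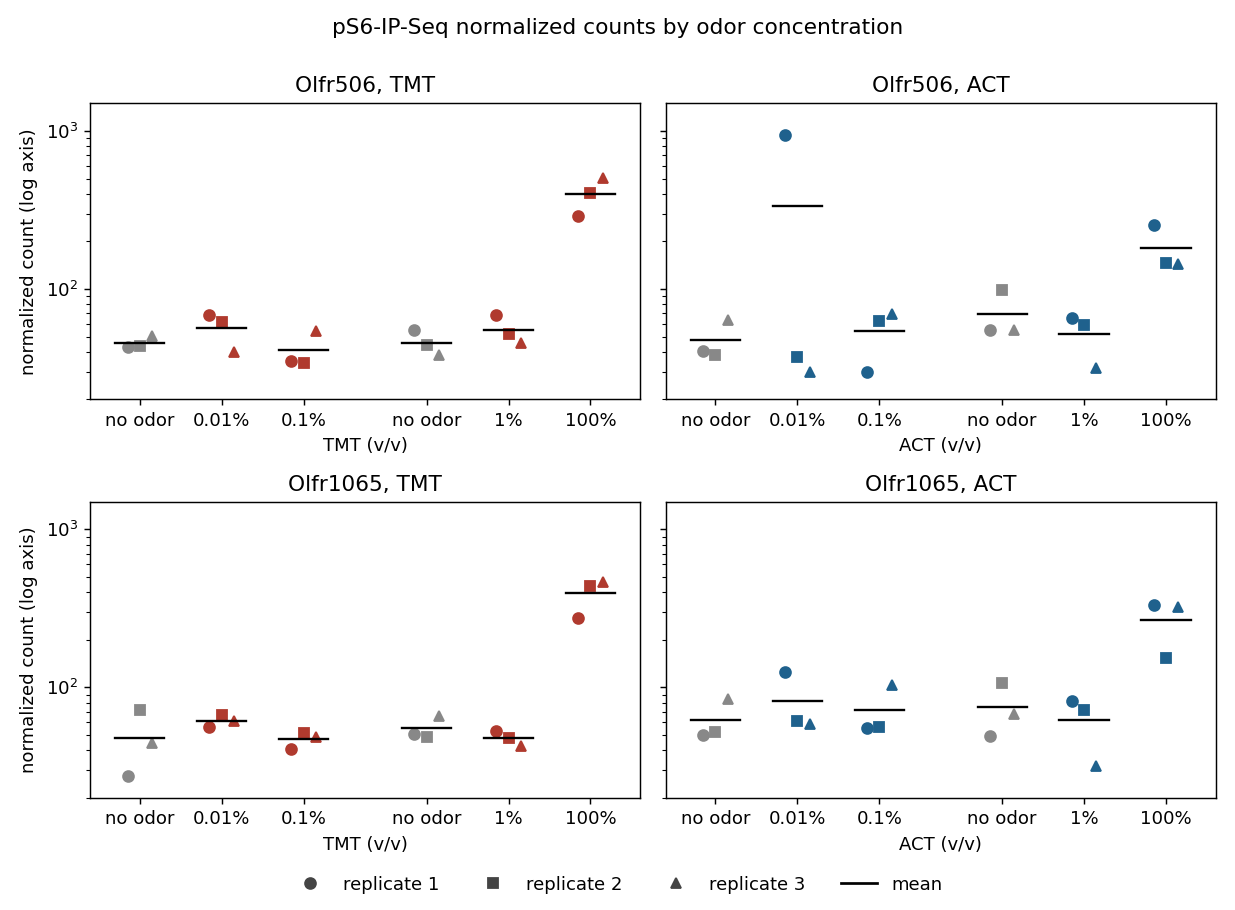
Normalized counts (log axis) of Olfr506 (top) and Olfr1065 (bottom) in pS6-IP-Seq, by TMT (left) and ACT (right) concentration, with the shared no odor mice to the left of each pair of concentrations. Symbols mark the replicate number and bars the mean of 3 mice. Both receptors are high at 100% TMT (275 to 503 normalized counts), intermediate at 100% ACT (145 to 331) and near the no odor level elsewhere, except for Olfr506 in 1 library at 0.01% ACT (945).

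The lower TMT concentrations are not named in the selection, but the receptors were chosen with earlier results of these data known. Tests at these concentrations are therefore not independent of the choice, and a lack of change there may follow from it. The tests used edgeR's quasi-likelihood test, with litter as a block and p values adjusted over all ORs. A result passed, or was called, at an adjusted p below 0.05, and each SE restates its test. At 0.01% TMT, Olfr506 had 68.2, 62.2 and 39.8 normalized counts, against 42.9, 43.6 and 50.5 in no odor littermates. Olfr1065 had 55.8, 67.0 and 61.4 at 0.01% TMT, against 27.6, 72.4 and 44.5 without odor. The groups overlap for both receptors, and neither passed the test (Olfr506, log2 fold change 0.28, SE 0.32, adjusted p = 0.995; Olfr1065, 0.41, SE 0.32, adjusted p = 0.94 by edgeR). Of all ORs, 0.368% were called higher at this concentration.

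At 0.1% TMT, Olfr506 had 34.9, 33.8 and 54.1 normalized counts, and Olfr1065 had 40.9, 51.7 and 48.5. The no odor littermates are those given for 0.01% TMT, and the groups again overlap. Fitted log2 fold changes were -0.17 (SE 0.30, adjusted p = 0.997) for Olfr506 and 0.05 (SE 0.30, adjusted p = 1) for Olfr1065 by edgeR's quasi-likelihood test, while 1.38% of ORs were called higher. The study labels Olfr506 among its TMT-responsive ORs, beside 6 others. Of those 6 other ORs, a set chosen on these same samples, 5 were called higher at 0.1% TMT, with a median log2 fold change of 2.004 against 0 over all ORs. At 0.01% TMT, 3 of these 6 were called higher. Olfr1297 had a log2 change of 3.03 at 0.1% TMT and of 2.68 at 100% TMT, whereas Olfr837, at -0.08 and 3.52, was near its no odor level at 0.1% TMT as Olfr506 and Olfr1065 were. At 1% TMT, Olfr837 had already reached 3.52, whereas Olfr506 and Olfr1065 still overlapped their no odor libraries.

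Neither receptor was high at 100% TMT alone: both also had higher counts at 100% ACT in every litter, although short of the threshold of the test used. At 100% ACT, Olfr506 had 255, 145 and 145 normalized counts (169, 104 and 116 counts), against 54.7, 98.1 and 55.3 in the no odor littermates. Olfr1065 had 331, 154 and 322 at 100% ACT (219, 110 and 258 counts), against 49.6, 107 and 67.5 without odor. For each receptor the lowest 100% ACT library lay above the highest of its no odor libraries. The changes were smallest in litter 2, whose no odor mouse had the highest level of both receptors. Of all ORs, 8.64% likewise had 3 odor libraries above 3 no odor libraries at 100% ACT, and 17.6% were higher in 3 of 3 litters.

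The fitted log2 fold changes at 100% ACT were 1.35 (SE 0.39) for Olfr506 and 1.80 (SE 0.44) for Olfr1065. With adjusted p = 0.133 and 0.0964, neither passed edgeR's quasi-likelihood test over all ORs, which called 0% of them higher. The count of 0 depends on the test: at an unadjusted p below 0.05 it had 114 ORs higher, edgeR's likelihood ratio test called 3.40% of ORs higher and DESeq2's Wald test 2.06%. The study's own edgeR analysis, with its own settings, reported more enriched ORs at 100% ACT than any of these tests called. By the likelihood ratio test both receptors were called (adjusted p = 0.0394 for Olfr506 and 0.00787 for Olfr1065), and by DESeq2 Olfr1065 alone (adjusted p = 0.0684 and 0.00804). Without litter 1 or litter 2 Olfr1065 passed the quasi-likelihood test as well, at adjusted p = 0.0417 and 0.0246 by edgeR. Those fits called 82 and 15 ORs higher, against 0 with all litters. Olfr506 did not pass the quasi-likelihood test with any of the 3 litters left out.

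Set directly against 1% ACT, both receptors were higher at 100% ACT. By the mean log2 change per litter, Olfr506 ranked 21 and Olfr1065 ranked 5 of 1088 ORs. At 1% ACT, Olfr506 had 65.7, 59.0 and 31.8 normalized counts and Olfr1065 had 82.5, 71.96 and 31.8. Within a litter, the log2 change of 100% over 1% ACT was 1.79 ± 0.45 for Olfr506 and 2.13 ± 1.11 for Olfr1065 (SD, n = 3 litters). In the fit of all 18 ACT libraries, the log2 fold changes were 1.84 (SE 0.89, adjusted p = 0.406) for Olfr506 and 2.18 (SE 0.46, adjusted p = 0.113) for Olfr1065 by edgeR's quasi-likelihood test, which called 0% of ORs higher, against 90 at an unadjusted p below 0.05. edgeR's likelihood ratio test called 0.551% and DESeq2 1.39% of ORs higher, and both called Olfr1065 (adjusted p = 0.0043 and 9.4e-04).

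The outcome of the quasi-likelihood test depended on 1 library of another concentration, while the fitted changes hardly moved without it. The 0.01% ACT mouse of litter 1 had 1023 counts of Olfr506 (945 normalized counts), the highest value of Olfr506 in the 36 pS6-IP-Seq libraries. The other 2 litters had 36.8 and 30.03 normalized counts at 0.01% ACT, against 40.6, 38.2 and 63.3 without odor. Without that library, the log2 fold changes between 100% and 1% ACT were 1.84 (SE 0.32) for Olfr506 and 2.18 (SE 0.38) for Olfr1065. Both then passed edgeR's quasi-likelihood test at adjusted p = 0.00456. That fit called 32 ORs higher, against 0 with the library. With only the 9 libraries of the high ACT concentrations, adjusted p values were 0.0251 (Olfr506) and 0.0334 (Olfr1065) by edgeR, and 8 ORs were called higher. Both alternatives leave out the 0.01% ACT library of litter 1, and the first was chosen after seeing the data. The second also leaves out all other libraries of the low ACT concentrations and their no odor mice, so it does not isolate that library.

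That library also stood apart from the other 0.01% ACT litters over the whole OR repertoire. In it 113 ORs had a log2 change above 2 from the no odor littermate, against 15 and 17 in the other 0.01% ACT litters, and Olfr506 ranked 4 of 1088 ORs. Olfr1065 was less affected, with 125 normalized counts there, against 61.0 and 59.0 in the other litters at 0.01% ACT and 49.6, 51.9 and 84.9 without odor. Numbers of ORs above a log2 change of 2 were similar in litter 3 at 100% TMT (113) and in litter 3 at 100% ACT (110). At 0.01% ACT neither receptor passed the test, with log2 fold changes of 0.91 (SE 1.18) and 0.34 (SE 0.42) for Olfr506 and Olfr1065 and adjusted p = 1 for both by edgeR's quasi-likelihood test. Without litter 1 these were -0.54 and -0.14, with adjusted p = 0.99 for both. That test called 0% of ORs higher at 0.01% ACT, with 18 at an unadjusted p below 0.05, and the likelihood ratio test and DESeq2 called 3 and 2. The study's own edgeR analysis reported more enriched ORs than these calls at 0.01% ACT as well.

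At 0.1% ACT, Olfr506 had 29.9, 62.9 and 69.3 normalized counts and Olfr1065 had 55.3, 56.1 and 103, overlapping the no odor levels given for 0.01% ACT. The fitted log2 fold changes were 0.18 (SE 0.30) and 0.21 (SE 0.25), with adjusted p = 1 for both by edgeR's quasi-likelihood test. At 1% ACT the log2 fold changes against no odor were -0.44 (SE 0.31, adjusted p = 0.923) for Olfr506 and -0.32 (SE 0.31, adjusted p = 0.986) for Olfr1065 by the same edgeR test. The shares of all ORs called higher were 0.643% at 0.1% ACT and 1.38% at 1% ACT. Neither receptor was distinguishable from its no odor level at these depths below 100% ACT, apart from the single library described.

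Side by side, the mean changes at 100% TMT exceeded those at 100% ACT for both receptors. For Olfr506 the log2 changes were 2.38, 3.16 and 3.69 at 100% TMT, and 2.20, 0.56 and 1.37 at 100% ACT. For Olfr1065 they were 2.42, 3.14 and 2.81 at 100% TMT, and 2.71, 0.52 and 2.24 at 100% ACT. The ranges do not overlap for Olfr506 and do for Olfr1065. The difference was not tested, because 100% TMT chose the receptors, and the litters of the odorants differ. Of the 6 ORs named by the study for ACT, which were chosen on these samples, the median log2 fold change at 100% ACT was 1.98, against 0 over all ORs. The 6 ORs the study labels for TMT beside Olfr506 had a median of 0.92, and Olfr376 is in both lists.

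**Figure D2:**
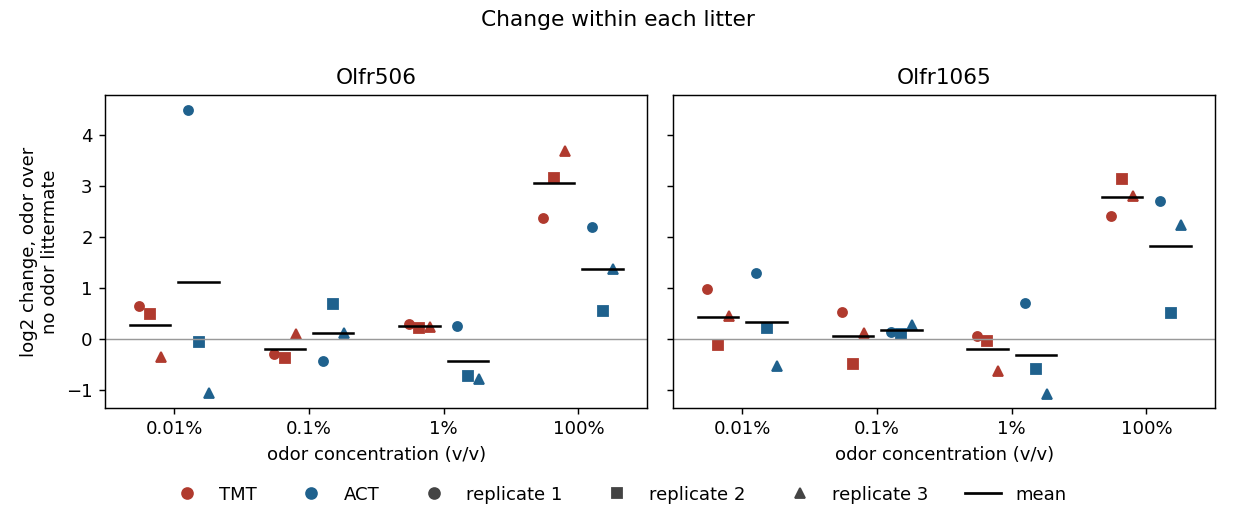
Log2 change of Olfr506 (left) and Olfr1065 (right) from the no odor littermate at each concentration of TMT (red) and ACT (blue), with a symbol per replicate and bars for the mean of 3 litters. All 3 litters are above 0 at 100% of both odorants, and litter 2 has the smallest change at 100% ACT (0.56 and 0.52).

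Across the 24 odor libraries, the changes of Olfr506 and Olfr1065 from the no odor littermate had a Pearson r of 0.82 and a Spearman rho of 0.74. These libraries share no odor mice in pairs and include the 100% TMT libraries that chose the receptors, so the values describe likeness and carry no p. Without the 3 libraries at 100% TMT, r was 0.69 over 21 libraries. Without the 0.01% ACT library of litter 1, r was 0.91 over 23 libraries, and each receptor was then the OR most like the other among 734 ORs with a mean normalized count of at least 20.

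By the same measure over all 24 libraries, the ORs most like Olfr506 were Olfr141 (r = 0.89), Olfr20 (0.86), Olfr201 (0.84), Olfr467 (0.83) and Olfr30 (0.83), a receptor the study names for ACT. Of these 5, only Olfr141 and Olfr30 were among the first 5 without the 0.01% ACT library of litter 1. The ORs most like Olfr1065 were Olfr1457 (r = 0.88), Olfr1463 (0.82), Olfr506 (0.82), Olfr1079 (0.80) and Olfr539 (0.78), and 4 of these 5 were among the first 5 without that library. Olfr1457 had 49.8, 76.6 and 86.8 normalized counts at 100% TMT, against a mean of 10.3 without odor. Its mean log2 changes were 0.49 at 1% TMT, 2.66 at 100% TMT and 2.10 at 100% ACT, which is the order seen for Olfr1065.

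**Figure D3:**
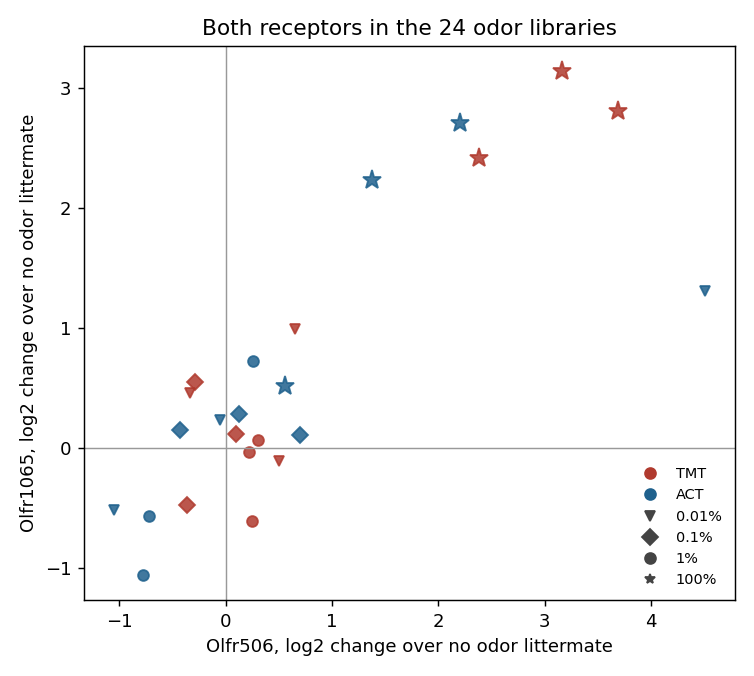
Log2 changes from the no odor littermate of Olfr506 (x axis) and Olfr1065 (y axis) in the 24 odor libraries, with TMT in red and ACT in blue and a symbol per concentration. The 3 libraries at 100% TMT and 2 of the 3 at 100% ACT lie apart from the rest at the upper right, and the 0.01% ACT library of litter 1 lies far right at 4.51 for Olfr506 and 1.31 for Olfr1065.

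Both receptors were expressed mainly in the dorsal mucosa. In RNA-Seq, Olfr506 had 1380, 879 and 1538 normalized counts in dorsal libraries (1435, 740 and 1193 counts), against 46.3, 90.95 and 91.2 in ventral libraries (50, 111 and 95 counts). Olfr1065 had 560, 356 and 643 normalized counts in dorsal libraries (582, 300 and 499 counts), against 77.7, 105 and 112 in ventral libraries (84, 128 and 117 counts). Dorsal and ventral libraries did not overlap for either receptor. The share of all ORs without such overlap was not counted, but 37.4% were called higher in dorsal mucosa, so separation of the zones is common. Dorsal replicate 2 was the lowest dorsal library for both receptors. In bulk tissue, more OSNs with a receptor and more RNA per OSN cannot be told apart.

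The log2 fold change of dorsal over ventral was 4.07 (SE 0.60, adjusted p = 1.5e-04) for Olfr506 and 2.38 (SE 0.58, adjusted p = 0.00235) for Olfr1065 by edgeR's quasi-likelihood test. Of all 1087 ORs, 37.4% were called higher in dorsal mucosa and 404 were called lower (ventral), so either call is common. Among the 407 ORs called dorsal, Olfr506 ranked 126 and Olfr1065 359 by fold change, on either side of their median of 3.71. Scaling mattered here, as the median of all ORs was -0.65 with the scaling used and -1.24 with totals on ORs, under which Olfr506 was at 3.47 and Olfr1065 at 1.78 and both were still called. Without replicate 1 or 3, Olfr1065 no longer passed (adjusted p = 0.0543 and 0.0878 by edgeR), while Olfr506 passed without each replicate. Dorsal and ventral libraries of the same replicate number tended to deviate in opposite directions (median r = -0.31). Without the number as a block both receptors were also called (adjusted p = 1.2e-04 for Olfr506 and 6.8e-04 for Olfr1065 by edgeR).

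The zone labels were compared with ORs of known territory. The dorsal ORs Olfr151 (M71), Olfr160 (M72) and Olfr545 were called higher in dorsal mucosa, at log2 fold changes of 4.32, 3.69 and 3.76. Olfr151 rests on few counts (17, 6 and 17 in dorsal libraries, against 0, 2 and 0 in ventral libraries). The study also reports correcting a misannotated Olfr151 to Olfr160, so Olfr151 may not be a separate check. Of the ventral ORs, Olfr1507 (MOR28) was called lower in dorsal mucosa at -5.27, and Olfr17 (P2) had -1.02 and did not pass (adjusted p = 0.127 by edgeR). Of the 6 ORs the study labels for TMT beside Olfr506, 1 was called dorsal (Olfr376, 3.47) and 3 were called ventral, with a median of -1.32 against -0.65 over all ORs, so that with Olfr506 itself 2 of 7 were dorsal. Of the 6 named for ACT, which also include Olfr376, 3 were called dorsal and none ventral, with a median of 1.08. Over all 1087 ORs, 404 were called ventral. Olfr506 and Olfr1065 were thus on the dorsal side with Olfr376, which is named for both odorants, and with the ACT receptors Olfr923 (4.41) and Olfr30 (2.32).

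**Figure D4:**
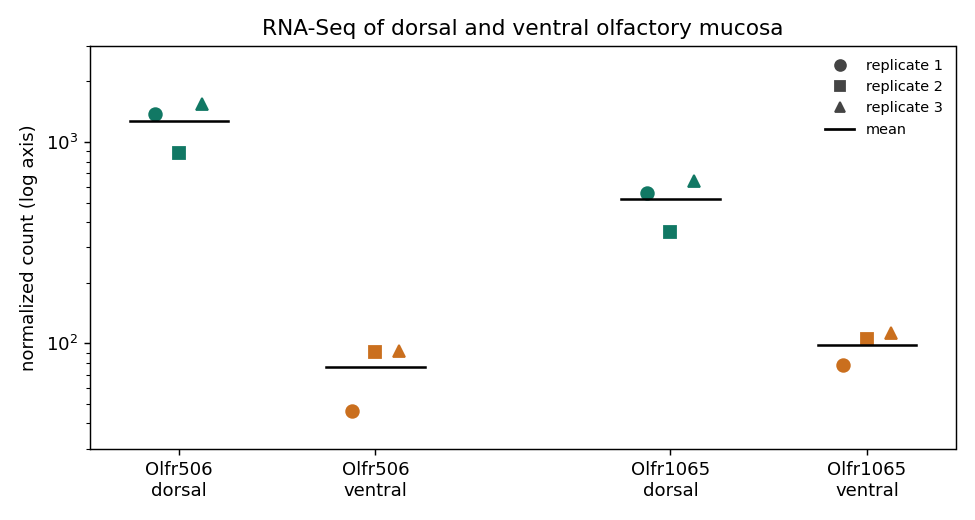
Normalized counts (log axis) of Olfr506 and Olfr1065 in RNA-Seq of dorsal and ventral olfactory mucosa, with a symbol per replicate and bars for the mean of 3 libraries. Dorsal values run from 879 to 1538 for Olfr506 and from 356 to 643 for Olfr1065, above every ventral value (46.3 to 112).

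Of the 5 ORs closest to Olfr1065 in protein sequence, 3 had changes at 100% TMT near its own, and of the 5 closest to Olfr506 none did. These changes are given as a description. The 5 ORs with the most similar proteins to Olfr1065 were Olfr1058 (86.9% identity), Olfr1087 and Olfr1047 (80.5% each), Olfr1054 (76.9%) and Olfr1079 (76.4%), all on chromosome 2. Olfr1087 had 83, 185 and 162 counts at 100% TMT, against 21, 15 and 21 in no odor littermates. Olfr1054 had 55, 70 and 127 counts at 100% TMT, against 11, 13 and 9 without odor. Olfr1047 had 59, 113 and 167 counts, against 16, 18 and 14. The 100% TMT and no odor counts of these 3 genes did not overlap. By the wider criterion, 21.4% of all ORs were higher at 100% TMT in 3 of 3 litters. None of these 3 genes shares a 50-base stretch with Olfr1065 transcripts.

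On the log2 scale the mean changes at 100% TMT were 2.80 for Olfr1087, 2.77 for Olfr1054 and 2.64 for Olfr1047, beside 2.79 for Olfr1065. Their changes at 1% TMT were 1.19, 0.30 and 0.56, and at 100% ACT they were 2.09, 2.10 and 1.17. Olfr1079 had 1.396 at 100% TMT. The most similar protein, that of Olfr1058, had a change of 0.83 on few counts (8, 6 and 11 at 100% TMT, against 9, 7 and 1 without odor), and its transcripts share 4.505% of the 50-base stretches of Olfr1065. In RNA-Seq, Olfr1054, Olfr1047, Olfr1079 and Olfr1058 were called dorsal as Olfr1065 was, and Olfr1087 had -1.16 and was not called (adjusted p = 0.0854 by edgeR).

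The 5 closest proteins to Olfr506 were Olfr507 and Olfr502 (83.4% each), Olfr484 (82.8%) and Olfr510 and Olfr493 (82.5% each), all on chromosome 7. Their mean log2 changes at 100% TMT ran from 0.37 to 1.78, below the 3.08 of Olfr506. Olfr502 was highest, with 44, 48 and 63 counts at 100% TMT, against 23, 18 and 7 in no odor littermates. Olfr507, Olfr484 and Olfr493 had at most 19 counts in any pS6-IP-Seq library, so their changes rest on few counts. For comparison, the median change at 100% TMT was 0.62 over the 12 ORs with at least 80% identity to Olfr506, 2.64 over the 3 with at least 80% identity to Olfr1065, and -0.04 over all ORs with a protein. With wider limits the medians were lower: from 75% identity, 0.37 over 17 ORs for Olfr506 and 1.11 over 8 for Olfr1065, and from 70% identity, 0.08 over 20 and 0.83 over 15.

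**Figure D5:**
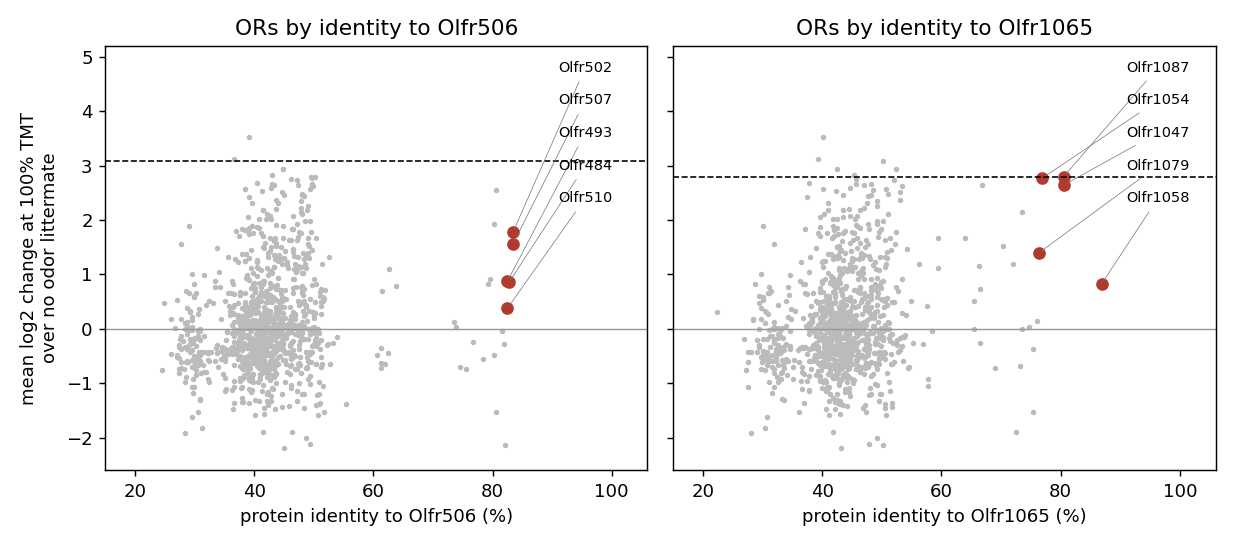
Mean log2 change at 100% TMT from the no odor littermate (y axis) against protein identity (x axis) to Olfr506 (left) and Olfr1065 (right) for 1081 other ORs, with the 5 most similar ORs in red and the change of the receptor itself as a dashed line. Olfr1087, Olfr1054 and Olfr1047 lie near its own change of 2.79, and the relatives of Olfr506 lie at 0.37 to 1.78, under its 3.08.

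The intact ORs nearest to each receptor on the chromosome had changes at 100% TMT on both sides of 0. Within 100 kb of the start of Olfr1065, 9 other intact ORs had mean log2 changes from -1.53 (Olfr1076) to 1.68 (Olfr1062), with a median of 0, and 3 of the 9 were higher in 3 of 3 litters, as were 21.4% of all ORs at 100% TMT. The nearest, Olfr1066 at 5.7 kb, had -0.69 on a mean of 4.75 counts per library. Within 100 kb of Olfr506, 7 ORs had changes from -0.62 (Olfr508) to 1.78 (Olfr502), with a median of 0, and 1 of the 7, Olfr502, was higher in 3 of 3 litters. In RNA-Seq, 7 of the 9 neighbours of Olfr1065 and 4 of the 7 of Olfr506 were called dorsal and none was called ventral. Over all 1087 ORs, 37.4% were called dorsal and 404 ORs ventral. Of these 16 neighbours, 3 (Olfr1061, Olfr504 and Olfr503) had a mean below 1 count per pS6-IP-Seq library and could hardly show a change. Each of these 3 had a change of 0, and the medians of 0 given above are their values.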

How the data were processed

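Expected counts per OR were made by the authors from 50-base reads mapped with STAR to GRCm38 and counted with RSEM, on an OR annotation with UTRs, and were deposited rounded to whole numbers. The deposited tables also hold fold changes and p-values of the authors' own edgeR comparisons, which were not used. The protocol in the labels of the dorsal and ventral libraries repeats that of pS6-IP-Seq, and the study's own description (total RNA) is followed. For the 0.1% TMT library of replicate 1, the description points to 1% TMT and the stimulant field to 0.1%, which was used. Counts on ORs ran from 37012 to 128805 in the 36 pS6-IP-Seq libraries and from 155319 to 242123 in the 6 zone libraries. The tables hold ORs only, so markers of other cell types were not analysed here.

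Counts were tested with edgeR 4.0.16 in R 4.3.3 (glmQLFit, robust, and glmQLFTest, two-sided), with TMM over ORs, no filter on low counts, the replicate number (litter) as a block, and Benjamini-Hochberg adjustment over all ORs. Each SE is |log2 fold change| over the root of F, so it restates the test. The comparison of 100% with 1% ACT used all 18 ACT libraries. Alternatives were DESeq2 1.42.0, edgeR's likelihood ratio test, other scaling, filterByExpr, no block, and each replicate left out. Changes per litter use a pseudocount of 1. The test was checked on simulated data.

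Replicate numbers stand for litters in pS6-IP-Seq. Over 876 ORs (mean count from 10), deviations from group means correlated at medians of 0.06 to 0.16 between libraries of equal number, and at -0.07 to -0.03 between others. Each group was centred on its own mean, so the values between others largely follow from those of equal number and add no separate evidence. For dorsal and ventral libraries the values were -0.31 and 0.18, so libraries of equal number tended to deviate in opposite directions. Whether their numbers pair the libraries cannot be told from these values, and the fit kept them as a block as in the authors' design.

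Gene positions and starts came from GENCODE M21 (GRCm38), sequences from the RefSeq copy of GRCm38.p6, and proteins from translated coding exons, aligned globally with Biopython 1.88 (BLOSUM62, gap costs 11 and 1, free ends; identity over the shorter protein). Named ORs are the receptors, the 5 ORs most like each in changes and in protein sequence, neighbours in rank and within 100 kb, zone markers and the other ORs the study labels in its volcano plots. The receptors and all lists were chosen with earlier results of these data known. The window before the start of Olfr1065 is not reported here.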

Additional observations from a re-analysis of the deposited data

How the results depend on the processing

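Over 16 tested values (each receptor in 8 comparisons) and 160 alternatives, 138 kept their direction and side of the threshold, 13 newly passed it, 2 no longer passed it and 7 changed sign, all 7 for values that did not pass to begin with. At 100% ACT, log2 fold changes that newly passed were 1.35 (Olfr506) and 1.80 (Olfr1065) by the likelihood ratio test and 1.83 (Olfr1065) by DESeq2. For 100% against 1% ACT, Olfr1065 had 2.19 by the likelihood ratio test, 2.22 by DESeq2, 2.22 in the 9 libraries and 2.18 without the 0.01% ACT library of litter 1, and Olfr506 had 1.89 and 1.84 in the last 2 of these. With each replicate left out, Olfr506 ran from 0.99 to 1.85 and Olfr1065 from 1.402 to 2.54 at 100% ACT, and from 1.67 to 2.07 and from 1.63 to 2.59 between 100% and 1% ACT, where both passed without replicate 1 (adjusted p = 0.00511 and 0.00292 by edgeR). Between the zones, Olfr1065 ran from 2.14 to 2.83 and Olfr506 from 3.67 to 4.63.

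Sign changes with a replicate left out were in Olfr506 (-0.54 to 2.27) and Olfr1065 (-0.14 to 0.78) at 0.01% ACT, Olfr506 (-0.11 to 0.42) at 0.1% ACT, Olfr1065 (-0.81 to 0.00596) at 1% ACT and Olfr1065 (-0.19 to 0.35) at 0.1% TMT, the last also without the replicate block (-0.0305). The cause of these shifts was not tested. The block changed no call of either receptor. It moved the number of ORs called higher from 2 without it to 15 with it at 1% ACT and from 7 to 0 at 100% ACT, and from 10 to 15 at 0.1% TMT. The number of ORs called higher also varied by setting at 100% ACT, from 0 to 82, and for 100% against 1% ACT, from 0 to 61, with the highest counts without replicate 1. At 0.1% ACT it was 7, but 0 without replicate 1 or 2 and 1 in the joint fit, and at 1% ACT it was 15, but 0 without replicate 2 and in the joint fit. Of the 5 ORs most like each receptor, 1 (Olfr506) and 2 (Olfr1065) were among the first 5 by Spearman rho, and 2 and 4 with a mean of at least 50 normalized counts. Mean normalized counts at 1% and 100% TMT and the changes at 100% TMT stayed within 1 SD with totals on ORs and with each replicate left out. The change at 1% TMT of Olfr506 moved to 0.0088 with totals on ORs, and that of Olfr1065 ran from -0.33 to 0.0159 with a replicate left out, with the sign change without replicate 3.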
